A study of Mus musculus with 7 samples.

Results

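The interferon response genes are a list of 33 genes that interferons are known to induce, 27 of them grouped here as type I targets and 6 as targets best known for interferon gamma. They were picked by name from the array platform's annotation. A gene counted as measured where a probe set carried its symbol and no other, and where several did, the probe set with the highest mean was used. By that rule 29 of the 33 were measured (25 type I and 4 gamma-type), out of 19937 measured genes in all. Isg15, Gbp2 and Igtp shared their probe sets with another symbol, and Ifi44 was unnamed in the annotation used, so these 4 have no value here.

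The cells were medullary thymic epithelial cells (MECs) with high MHC class II, isolated with collagenase and dispase and sorted by flow cytometry. All mice were of the NOD strain, were irradiated as pups of 2 to 4 days with 200 rad, and received bone marrow into the peritoneum 6 h later. Their thymi were taken 6 to 8 weeks after that transfer. The reconRAG1KO mice (4 samples, null for RAG1) served as controls, per the series title. The reconSCID mice (3 samples) carried the SCID mutation of DNA-PK. RAG1 acts in developing lymphocytes, whereas DNA-PK repairs DNA breaks in most cells. Both defects are germline, so the labels restrict neither to the epithelium, and irradiation and transfer are shared by both groups. The labels do not name the marrow's donor. The labels call the samples biological replicates and do not say how many thymi each one holds.

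Type I interferons signal through a receptor of IFNAR1 and IFNAR2 and the kinases JAK1 and TYK2 to a complex that includes STAT2 and IRF9 and binds the interferon-stimulated response element (ISRE) in target promoters. Interferon gamma signals through IFNGR1 and IFNGR2 and the kinases JAK1 and JAK2, and many of its target promoters carry the gamma-activated site (GAS). Medullary epithelial cells are known to express interferon-stimulated genes without infection. Macrophages, dendritic cells and B cells carry this programme as well.

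Each sample was hybridised to 1 array, and values below are log2 of the deposited intensity unless stated otherwise. By their correlations the 7 arrays fell into a larger set of 5 and a smaller set of 2, reconRAG1KO replicate 4 and reconSCID replicate 2. The labels name no batch, and each set holds both groups. Arrays correlated at 0.976 to 0.990 within the larger set, at 0.972 within the smaller set, and at 0.922 to 0.947 between sets. All 13 epithelial markers listed, among them Aire and Epcam, lay above the array median on every array. The summed intensity of these markers was 13504 to 23467 in reconRAG1KO and 7938 to 20837 in reconSCID. In 46.2% of all 34760 probe sets at least 1 deposited value was shared by several arrays, as it was in 9 of the 29 members and 57.8% of all genes, which can make a spread look smaller than it was.

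Promoter sequences of 25 of the 33 members were found in RefSeq (build GRCm38.p6), 21 of them of measured members. In the 250 bases before the start site, the ISRE core (GAAA, any 2 bases, GAAA) was searched on both strands, as was the GAS core (TTC, any 3 bases, GAA), which matches on both strands at once. The ISRE core stood in 7 of 25 promoter windows of measured members, or 28.0%, against 2.98% of 32851 windows of all genes. For the GAS core the counts were 2 of 25 windows, or 8.0%, against 7.02%. No ISRE match overlapped a GAS match in these windows. The stretches below show these letters, with matches in capitals, in 5 type I members whose values are given later and in 2 gamma-type members, among them both measured members with a GAS core.
Ifit1, chr19:34640767-34640831, plus strand: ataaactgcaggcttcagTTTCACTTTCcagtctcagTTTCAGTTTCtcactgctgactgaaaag
Ifit3, chr19:34583355-34583434, plus strand: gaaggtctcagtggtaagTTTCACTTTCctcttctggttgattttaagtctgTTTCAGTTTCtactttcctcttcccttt
Ifit2, chr19:34550444-34550479, plus strand: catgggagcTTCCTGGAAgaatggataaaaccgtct
Rsad2, chr12:26456545-26456590, minus strand: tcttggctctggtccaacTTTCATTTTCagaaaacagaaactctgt
Stat2, chr10:128270258-128270303, plus strand: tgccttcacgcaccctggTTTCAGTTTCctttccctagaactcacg
Irgm1, chr11:48871421-48871468, minus strand: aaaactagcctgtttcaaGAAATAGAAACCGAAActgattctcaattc
Irf1, chr11:53769906-53769950, plus strand: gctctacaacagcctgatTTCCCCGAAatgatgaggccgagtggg
Ifit1 and Ifit3 each carry a pair of ISRE matches, which begin 104 and 85 bases before the start site of Ifit1 and 156 and 122 bases before that of Ifit3. In Irgm1 the matches overlap each other and begin 30 and 24 bases before the start. The GAS matches lie in a member of each class. That of Ifit2 begins 241 bases before the start site and that of Irf1 90 bases before the start of 1 of its transcripts, and neither gene has an ISRE match in these windows. A match describes these letters only and is not evidence that a factor binds there.

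No interferon response gene passed the test between reconSCID and reconRAG1KO. Among the 25 type I members 17 were higher and 8 lower in reconSCID, with a median log2 difference of 0.07 and a range from -0.30 to 0.34. Of the 4 gamma-type members 2 were higher and 2 lower, with a median of 0.03. Over all 19937 genes the median was -0.01, with 9483 higher and 10454 lower. By limma, 0 of the 29 members had an adjusted p under 0.05 and 0 had an unadjusted p under 0.05. Over all 34760 probe sets, 0 passed after adjustment, and 3.33% had an unadjusted p under 0.05 (2.2% higher and 1.13% lower in reconSCID). With array weights 57 probe sets passed, and 0 members. In no member did all reconSCID arrays lie above or all below the reconRAG1KO arrays, a pattern found in 1.23% and 1.54% of all genes.

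When array set entered the fit as a block, the members' differences stayed small. The medians were 0.04 for type I members (15 higher, 10 lower) and 0.02 for gamma-type members, and 0 members passed adjustment. At an unadjusted p under 0.05 there were 2 members higher and 1 lower, against 6.53% and 5.77% of all probe sets. These 3 were Ifih1, Rsad2 and Usp18. In the larger set alone, 0 members passed adjustment, 4 were higher at an unadjusted p under 0.05 (Ifih1, Mx1, Rsad2 and Trim25) and 0 were lower, against 8.87% and 6.63% of all probe sets. Without reconSCID replicate 3 the type I median was -0.03 with or without the block, with 10 members higher and 15 lower. In the smaller set alone, with 1 array a group and no test, the type I median was -0.05.

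**Figure D1:**
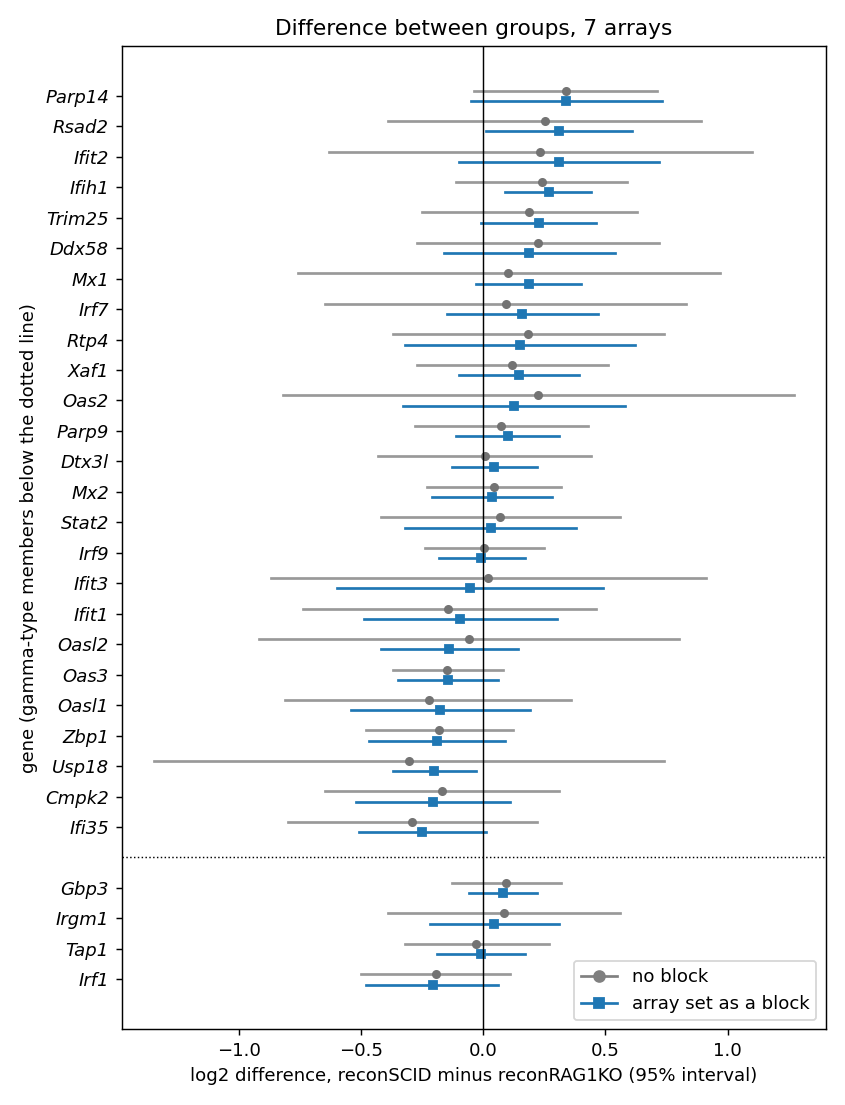
Log2 difference of each measured member, reconSCID minus reconRAG1KO, over 7 arrays (horizontal axis), with the 95% interval from limma. Grey circles are from the fit without a block, and blue squares from the blocked fit, in which the intervals of Ifih1, Rsad2 and Usp18 exclude 0 before adjustment.

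Among the transcription factors, Irf7, which amplifies type I interferon production, measured 10.84, 10.79, 10.69 and 10.14 in reconRAG1KO replicates 1 to 4 and 10.86, 10.03 and 11.23 in reconSCID replicates 1 to 3. The lowest array of each group was that of the smaller set, and the groups overlapped. The log2 difference of Irf7 was 0.09 (95% interval from -0.65 to 0.83), and the blocked difference was 0.16, from -0.15 to 0.47. Stat2, a subunit of the type I complex, measured 9.18, 9.29, 9.19 and 9.75 in reconRAG1KO and 9.05, 9.62 and 9.60 in reconSCID. For Stat2 the smaller set held the highest array of each group, and the difference was 0.07, from -0.42 to 0.56. Irf9, the DNA-binding subunit of that complex, averaged 8.42 ± 0.14 (SD, n = 4) among reconRAG1KO samples and 8.42 ± 0.03 (SD, n = 3) among reconSCID samples. Its difference was 0.004, from -0.24 to 0.25.

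Of the sensors of foreign nucleic acid, Ifih1, which encodes the RNA sensor MDA5, measured 8.95, 8.98, 8.96 and 8.57 in reconRAG1KO and 9.09, 8.92 and 9.31 in reconSCID. Within the larger set both reconSCID arrays lay above the 3 reconRAG1KO arrays, and in the smaller set the reconSCID array was higher by 0.35. The blocked difference of Ifih1 was 0.27, from 0.09 to 0.44 (limma, adjusted p = 0.2845). It ran from 0.22 to 0.34 when each array was left out in turn, with an unadjusted p under 0.05 each time. Without the block it was 0.24, from -0.11 to 0.59. Ddx58, which encodes the RNA sensor RIG-I, measured 8.54, 8.53, 8.60 and 9.02 in reconRAG1KO and 8.47, 9.18 and 9.05 in reconSCID. Its blocked difference was 0.19, from -0.16 to 0.54, and 0.008 without reconSCID replicate 3. Trim25, the ubiquitin ligase that helps activate RIG-I, had a blocked difference of 0.23, from -0.01 to 0.46, and both reconSCID arrays of the larger set lay above the controls there. Zbp1, a sensor of left-handed nucleic acid, had a blocked difference of -0.19, from -0.47 to 0.09.

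The antiviral effectors spread to both sides of 0. Rsad2, which encodes viperin, measured 8.45, 8.29, 8.47 and 7.97 in reconRAG1KO and 8.85, 7.91 and 8.90 in reconSCID. Both reconSCID arrays of the larger set stood above its controls, while in the smaller set the difference was -0.065. The blocked difference of Rsad2 was 0.31, from 0.01 to 0.61 (limma, adjusted p = 0.3894). Leaving out each array in turn gave 0.24 (without reconSCID replicate 3) to 0.47, with an unadjusted p under 0.05 in 2 of 7 cases. These 2 were the runs without an array of the smaller set, which are 1 fit, that of the larger set alone. Mx1, a GTPase against orthomyxoviruses whose allele is defective in most laboratory strains, measured 8.01, 7.97, 7.99 and 7.14 in reconRAG1KO and 8.20, 7.09 and 8.35 in reconSCID. Its blocked difference was 0.19, from -0.03 to 0.40. Mx2 averaged 7.32 ± 0.16 (SD, n = 4) and 7.36 ± 0.07 (SD, n = 3).

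The Ifit genes encode proteins that bind foreign RNA. Ifit2 measured 8.44, 8.29, 8.29 and 7.43 in reconRAG1KO and 8.32, 7.71 and 9.0 in reconSCID. Its highest array was reconSCID replicate 3, and the blocked difference of 0.31, from -0.10 to 0.72, was 0.10 without that array. Ifit3, whose signal may include its near-identical copy Ifit3b, measured 7.58, 7.75, 7.56 and 8.35 in reconRAG1KO and 7.03, 8.53 and 7.92 in reconSCID. ReconSCID thus held both its lowest and its highest array, and the blocked difference was -0.06, from -0.60 to 0.49. Ifit1 had a blocked difference of -0.10, from -0.49 to 0.30.

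Oligoadenylate synthetases make a messenger that activates the antiviral ribonuclease RNase L, and the Oasl genes encode related proteins. Oas2 measured 7.66, 7.64, 7.58 and 8.76 in reconRAG1KO and 7.35, 8.90 and 8.14 in reconSCID. The highest array of each group was that of the smaller set, well above the others in reconRAG1KO, while the reconSCID values were evenly spread. The blocked difference of Oas2 was 0.13, from -0.33 to 0.58. The blocked differences of Oas3, Oasl1 and Oasl2 were -0.15, -0.18 and -0.14, and each interval included 0. Cmpk2, a nucleotide kinase gene next to Rsad2, had a blocked difference of -0.21, from -0.52 to 0.11.

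Usp18, which removes ISG15 from proteins and dampens signalling at IFNAR2, measured 10.43, 10.44, 10.58 and 9.30 in reconRAG1KO and 10.37, 9.02 and 10.25 in reconSCID. Within each array set the reconSCID arrays were below the reconRAG1KO arrays. The blocked difference of Usp18 was -0.20, from -0.37 to -0.03 (limma, adjusted p = 0.3586), and -0.30 without the block, from -1.35 to 0.74. When each array was left out in turn, the blocked value ran from -0.25 to -0.17, and its unadjusted p was under 0.05 in 3 of 7 cases. Parp9 and Dtx3l, neighbouring genes whose products act as a pair in modifying histones, had blocked differences of 0.10 and 0.04. Beside them on the chromosome, Parp14, an ADP-ribosyltransferase gene, measured 9.11, 9.33, 9.19 and 9.33 in reconRAG1KO and 9.33, 9.48 and 9.93 in reconSCID. The high array of Parp14 was reconSCID replicate 3, without which its blocked difference of 0.34 (from -0.05 to 0.73) was 0.13. Of the members whose roles are less settled, Ifi35, Xaf1 and Rtp4 had blocked differences of -0.25, 0.15 and 0.15, each with an interval that included 0.

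Of the gamma-type members, 0 had an unadjusted p under 0.05 with or without the block. Irf1, a transcription factor induced by interferon gamma, measured 11.01, 10.92, 10.92 and 11.05 in reconRAG1KO and 10.92, 10.92 and 10.50 in reconSCID. Only reconSCID replicate 3 stood apart, and the difference of -0.20 without the block had an interval from -0.50 to 0.11. With the block it was -0.21, or -0.07 without that array. Gbp3, a guanylate-binding protein, averaged 8.49 ± 0.07 (SD, n = 4) and 8.59 ± 0.12 (SD, n = 3). Irgm1, a GTPase that acts on vacuoles of intracellular bacteria, averaged 8.82 ± 0.28 (SD, n = 4) and 8.90 ± 0.28 (SD, n = 3). Tap1, a subunit of the peptide transporter for MHC class I, averaged 10.14 ± 0.12 (SD, n = 4) and 10.11 ± 0.20 (SD, n = 3), and its difference was -0.03, from -0.32 to 0.27. Whether the gamma-type and type I members differed from each other was not tested.

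In 25 of 29 members the difference between the means of the array sets was larger in size than that between the groups, as it was in 16275 of 19937 genes. The sets were defined from these arrays, so their differences are descriptions with no test. Among type I members 13 were lower in both arrays of the smaller set than in all 5 others, and 6 were higher. These are 52.0% and 24.0% of the 25, against 20.1% and 37.0% of all genes. The balance depended on the scaling. After quantile normalisation 8 type I members were lower and 9 higher without overlap (3926 and 6701 of all 19937 genes), and after centring 13 were lower and 3 higher (5762 and 5261). Of the type I members apart as deposited, 8 stayed lower and 3 stayed higher without overlap under all 3 scalings tried (as deposited, quantile-normalised, and centred on the array median). The share of all genes that stayed apart under all 3 is not given here, so these counts have no background to be set against. The mean of the smaller set minus that of the larger set was -1.25 for Usp18 (a 2.38-fold difference), -0.98 for Mx1, -0.90 for Ifit2 and -0.80 for Irf7. It was 1.16 for Oas2 (2.23-fold), 0.96 for Oasl2 and 0.87 for Ifit3. All 7 are among those that stayed apart under the 3 scalings. The median over all genes was 0.12 higher in the smaller set as deposited, 0.08 higher after quantile normalisation and 0.01 higher after centring, and the type I median was -0.31, -0.01 and -0.41.

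Several members lie side by side on a chromosome, and some of these pairs had opposite signs between the array sets. For Ifit2 the difference between sets was -0.90, and for Ifit3, the next protein-coding gene, it was 0.87, and both stayed apart under the 3 scalings. Oasl1 and Oasl2 are adjacent as well, and their values in the smaller set were -0.58 and 0.96 relative to the larger set, although Oasl1 no longer separated the sets after quantile normalisation. Rsad2 and Cmpk2 gave -0.65 and 0.42, and Cmpk2 separated the sets only in the values as deposited. Oas2 and Oas3 gave 1.16 and -0.03, and Oas3 turned to 0.13 after quantile normalisation. Parp9 and Dtx3l went the same way, with -0.31 and -0.45, and Parp14 beside them gave 0.03. Ifit1 and Ifit3, both printed above with a pair of ISRE cores, gave -0.57 and 0.87. Among gamma-type members Irgm1 was higher in the smaller set without overlap under each scaling, by 0.47 as deposited, 0.80 after quantile normalisation and 0.37 after centring, whereas Tap1 gave -0.25 as deposited and 0.22 after quantile normalisation. In the 2 arrays of the smaller set the summed intensity of 10 endothelial and fibroblast markers was 3953 and 6592, against 1520 to 1912 in the larger set. There the sum of 10 macrophage markers was 9845 and 6620, against 13481 to 24304, and that of 10 dendritic cell markers 1568 and 1510, against 2708 to 4418. The macrophage markers were not uniformly low in reconRAG1KO replicate 4. Their median log2 there was 9.75, within the 9.73 to 10.84 of the larger set, and 8.78 in reconSCID replicate 2. Of the 10 markers 9 were lowest in reconSCID replicate 2 and 1 in reconRAG1KO replicate 4. Among the dendritic cell markers Tcf4 was higher in the smaller set, by 0.26, and Cd209a and Siglech overlapped between sets, at -0.22 and -0.12. The rest were lower in the smaller set without overlap, from -0.24 for Zbtb46 to -2.44 for Xcr1. The 13 epithelial markers summed to 23467 and 20837, against 7938 to 17196. Their median log2 was 10.16 and 10.23, against 9.09 to 10.22. Between the sets Cd80 and Relb went the other way, at -1.09 and -0.25, and the rest were higher in the smaller set, from 0.03 for Tnfrsf11a to 1.76 for Krt5. The part of these cells in the differences of the members was not tested.

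**Figure D2:**
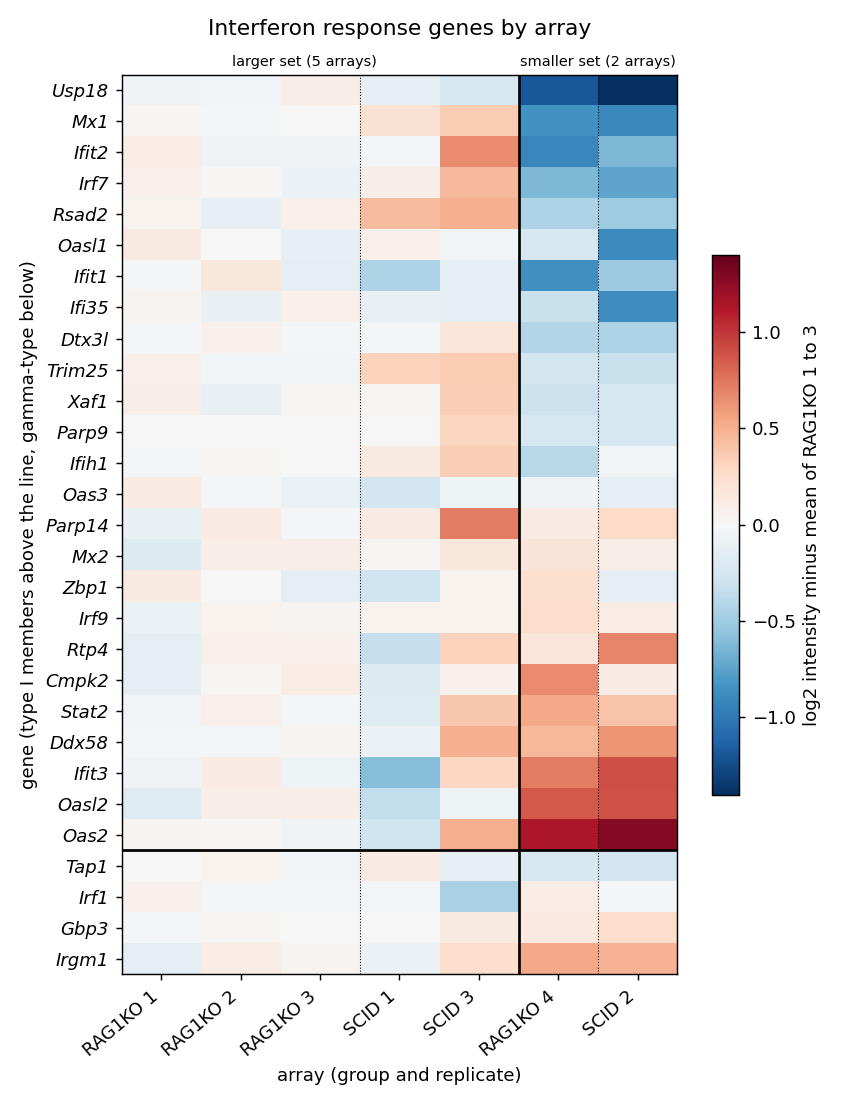
Log2 intensity of the 29 measured members on each array minus the mean of reconRAG1KO replicates 1 to 3 (colour), with genes as rows and arrays as columns, the larger set left and the smaller set right of the vertical line. Usp18, Mx1, Ifit2 and Irf7 are lower and Oas2, Oasl2 and Ifit3 higher in both arrays of the smaller set, and reconSCID replicate 3 is the warmest column of the larger set.

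**Figure D3:**
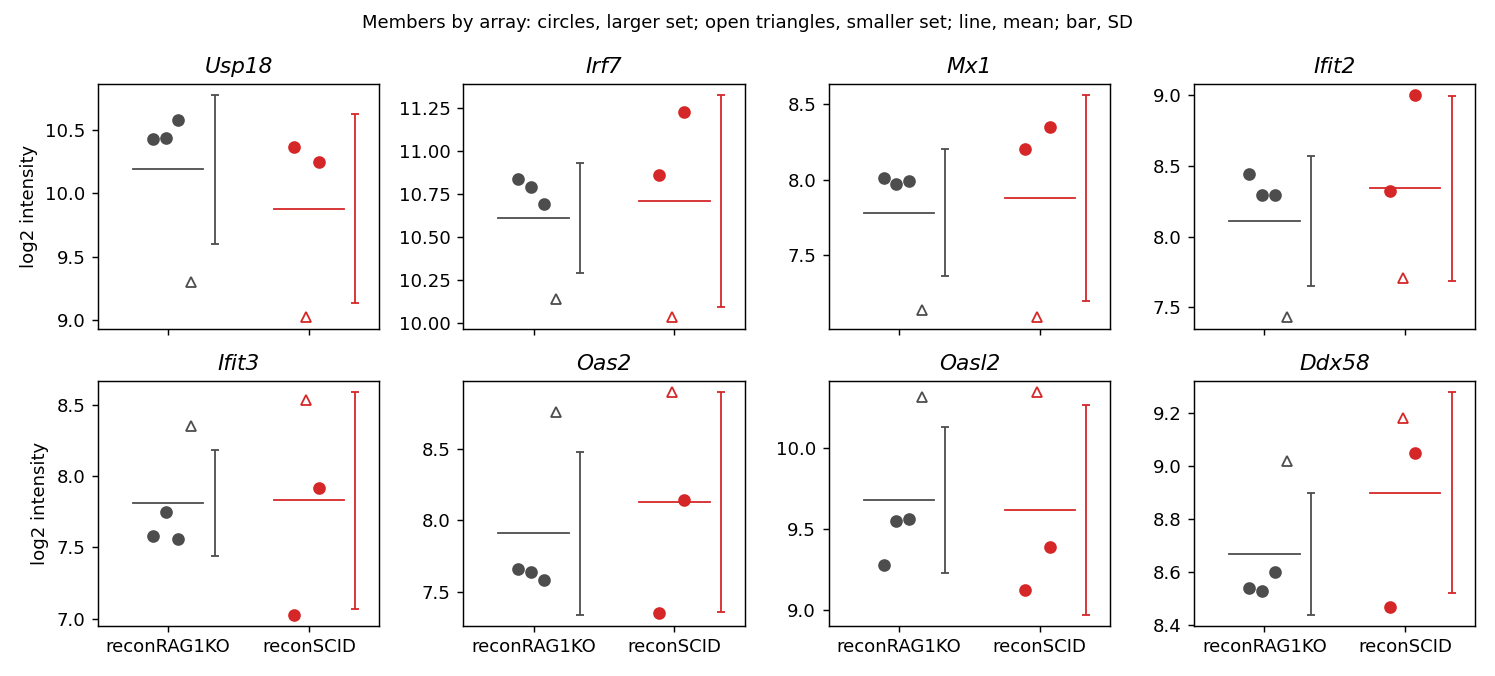
Log2 intensity (vertical axis, scaled per gene) of 8 type I members in the 4 reconRAG1KO and 3 reconSCID samples. Circles are arrays of the larger set, open triangles those of the smaller set, horizontal lines group means and bars SDs; within each group the triangle lies below the circles for the upper 4 genes and above them for the lower 4.

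Within the larger set the 2 reconSCID arrays differed from each other in most type I members. ReconSCID replicate 3 exceeded all 3 reconRAG1KO arrays of that set in 16 of 25 type I members and lay below them in 2, against 25.9% and 35.2% of all genes. ReconSCID replicate 1 exceeded them in 5 and lay below them in 11, against 21.7% and 28.9%. In 5 members replicate 3 was above and replicate 1 below the controls, a pattern whose share over all genes is not given here. In 5 others both were above. The latter were Irf7, Ifih1, Mx1, Rsad2 and Trim25, and the share of all genes with both above is 13.7%. Usp18 was the 1 type I member with both below, against 18.1%. The median over type I members, relative to the mean of the 3 controls, was 0.29 in replicate 3 and -0.03 in replicate 1, and it was 0.26 in replicate 3 after quantile normalisation.

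The members furthest above the mean of those controls in replicate 3 were Parp14, Ifit2, Oas2, Rsad2 and Ddx58, at 0.72, 0.66, 0.52, 0.49 and 0.49. In replicate 1 the same genes gave 0.12, -0.03, -0.27, 0.44 and -0.09, so Rsad2 was about as high in both arrays. Ifit3 had the widest gap between the 2 arrays, with -0.60 in replicate 1 and 0.29 in replicate 3. Irf1, of the gamma-type members, stood at -0.45 in replicate 3 and at -0.03 in replicate 1. Replicate 3 had the highest value of all 7 arrays in 10 of 25 type I members (against 15.3% of all genes) and the lowest in 0 (against 23.7%). Type I targets outside the members were less uniform there. Of 18 such targets, described below, 10 lay above and 6 below all 3 controls in replicate 3, against 25.9% and 35.2% of all genes. That array was the highest of all 7 in 7 of them and the lowest in 3.

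**Figure D4:**
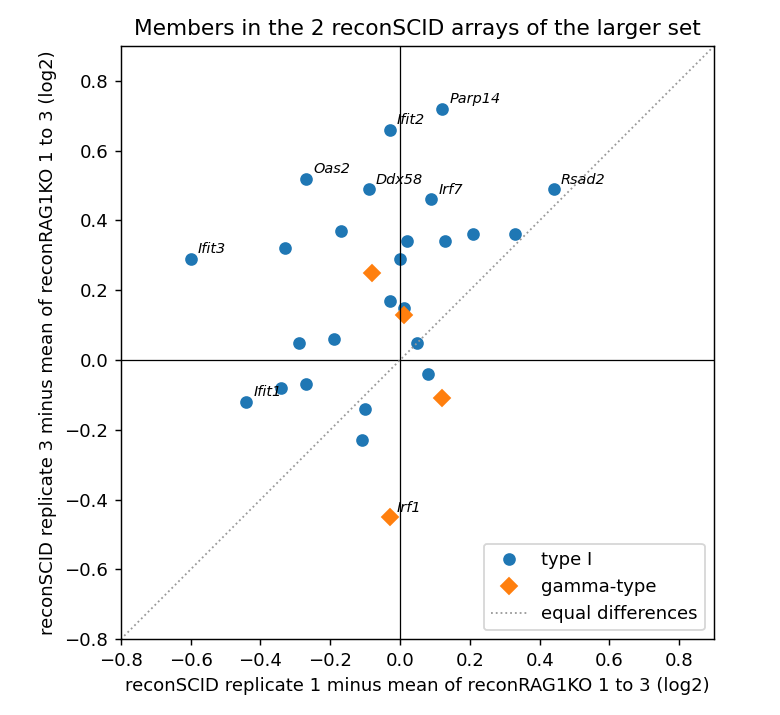
Log2 intensity of each member in reconSCID replicate 1 (horizontal axis) and replicate 3 (vertical axis), both minus the mean of reconRAG1KO replicates 1 to 3, with type I members as circles and gamma-type members as diamonds. Most type I members lie above the dotted line of equal differences, and 21 of 25 were higher in replicate 3 than in replicate 1, against 43.9% of all genes.

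Markers of macrophages, B cells, dendritic cells and T cells also had their highest sums in reconSCID replicate 3. All 10 macrophage markers had their highest value there, with a summed intensity of 24304 against 9845 to 15770 in reconRAG1KO and 6620 and 17578 in the other reconSCID arrays. The 9 measured B cell markers summed to 4069 there, against 934 to 1183 in reconRAG1KO and 1974 and 1057 in reconSCID replicates 1 and 2, and all 9 were highest in replicate 3. Dendritic cell markers summed to 4418, against 1510 to 3673 in the other 6 arrays, and 6 of 10 were highest there. Flt3, Zbtb46, Ccr9 and Klk1, whose probe set is annotated as Klk1b1, were highest in reconRAG1KO arrays. Relative to the mean of reconRAG1KO replicates 1 to 3, Flt3 and Zbtb46 stood at -0.09 and -0.11 in replicate 3. T cell markers summed to 3855, against 1443 to 3088, and 7 of 9 were highest there. Epithelial markers had their lowest sum there, 7938, and 12 of 13 were lowest on that array. No marker was at 0, since no deposited intensity was below 4.30. The part of these cells in the level of the members was not tested, and in sorted bulk samples more cells of a type and more RNA per cell cannot be told apart. The neutrophil list, which summed to 1182 in replicate 3, the NK cell list, at 433, and the endothelial and fibroblast list, at 1596, did not have their highest sum there. Between the groups over all 7 arrays, 9 of 10 neutrophil markers were lower in reconSCID, with a median log2 difference of -1.43. All 13 epithelial markers were lower, with a median of -0.48, and all 9 B cell markers higher, with a median of 0.99. The other lists held both directions, with medians from -0.05 (NK cells) to 0.22 (endothelium and fibroblasts). In each list 0 markers passed adjustment.

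**Figure D5:**
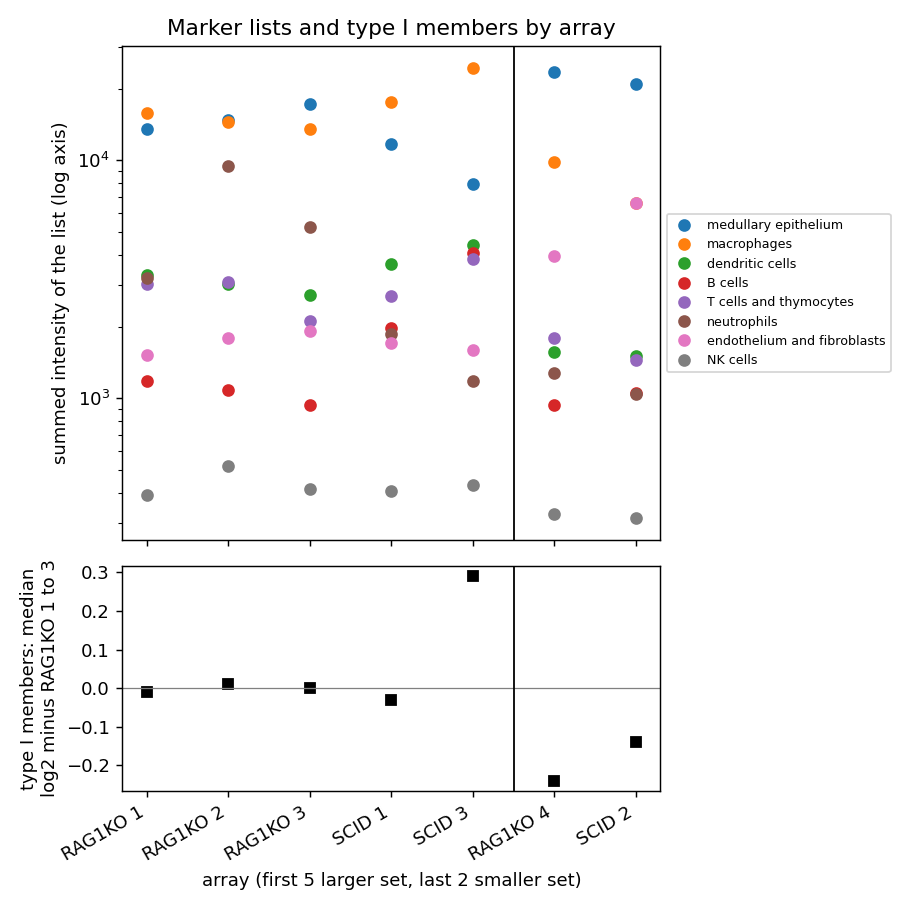
Summed intensity of each marker list (upper panel, log axis) and the median of the 25 type I members relative to reconRAG1KO replicates 1 to 3 (lower panel, log2) on each array, the larger set left and the smaller set right of the line. ReconSCID replicate 3 has the highest macrophage, dendritic, T and B cell sums, the lowest epithelial sum and the highest type I median, 0.29.

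The rest of the interferon pathway was described from lists of ligands, receptors, sensors, regulators and further targets. Of 84 such genes, 75 were measured and 0 passed adjustment by limma, with or without the block. Among 8 measured ligands 4 were higher and 4 lower, with Ifnb1 at 5.60, 5.44, 5.18 and 5.42 in reconRAG1KO and 5.44, 5.44 and 5.35 in reconSCID. Ifng averaged 5.97 ± 0.03 (SD, n = 4) and 5.96 ± 0.25 (SD, n = 3). The ligands named in this report had low mean levels, from percentile 16.5 of all probe sets for Ifna4 to 39.0 for Ifng. The other measured ligands lay higher, at percentiles 65.9 and 74.4.

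Receptors and kinases were higher in reconSCID in 7 of 9 cases, with a median of 0.09, and 1 of 9 had an unadjusted p under 0.05, against 2.2% of all probe sets higher and 1.13% lower at that level. That gene was Ifngr1, the ligand-binding chain of the interferon gamma receptor, which measured 9.09, 9.22, 8.91 and 9.42 in reconRAG1KO and 9.58, 9.69 and 9.79 in reconSCID. All 3 reconSCID arrays lay above all reconRAG1KO arrays, as in 1.23% of all genes. The difference of Ifngr1 was 0.53, from 0.19 to 0.86 (limma, adjusted p = 1.0), and 0.51 with the block, from 0.22 to 0.80 (adjusted p = 0.2624). When each array was left out in turn it ran from 0.44 to 0.61 without the block and from 0.41 to 0.61 with it. Ifngr2 had a difference of -0.07, from -0.30 to 0.15. Ifnar1 and Jak2 had blocked differences of 0.22, from 0.05 to 0.38, and 0.39, from 0.14 to 0.63, with adjusted p of 0.3134 and 0.2805 in limma. The values of Ifnar2, Jak1 and Tyk2 with the block were 0.17, 0.11 and -0.22, and each interval included 0.

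Among 16 genes of sensing and induction 8 were higher and 8 lower, with a median of 0.002. Tlr3, the endosomal receptor for double-stranded RNA, measured 6.26, 6.53, 6.38 and 6.28 in reconRAG1KO and 7.10, 6.62 and 7.34 in reconSCID, with no overlap between groups (1.23% of all genes in that direction). Its difference was 0.66, from 0.23 to 1.08 (limma, adjusted p = 1.0), and 0.69 with the block (adjusted p = 0.2466). Leaving out each array in turn gave 0.50 to 0.86 without the block and 0.56 to 0.83 with it. The highest array for Tlr3 was again reconSCID replicate 3, and replicate 1 was next. Mavs, the adaptor of RIG-I and MDA5, did not overlap between groups either, but by a margin too small to show at 2 decimals. It measured 7.69, 7.73, 7.75 and 7.75 in reconRAG1KO and 7.76, 7.75 and 8.13 in reconSCID. The difference of Mavs was 0.15, and 0.03 without replicate 3. Tmem173, which encodes the DNA-sensing adaptor STING, differed by -0.21 and Myd88, the adaptor of most Toll-like receptors, by 0.23.

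Further targets followed no single direction. Of 18 other type I targets 10 were higher and 8 lower, with a median of 0.10, and of 17 other gamma targets 5 were higher and 12 lower, with a median of -0.10. None of these 35 had an unadjusted p under 0.05 without the block. With it, 2 of the type I targets were higher and 2 lower at that level, and 1 of the gamma targets was higher, against 6.53% and 5.77% of all probe sets. They were Sp100 at 0.39, Trim30a at 0.49, Ube2l6 at -0.26, Ifi27 at -0.28 and Gbp7 at 0.43, of which Sp100, Trim30a and Ube2l6 were singled out after their values were seen. Among the type I targets Ifitm3, a membrane protein that blocks viral entry, differed by -0.40, Ifi27 by -0.32, the RNA helicase gene Ddx60 by 0.27 and Uba7, the activating enzyme for ISG15, by -0.15. Among the gamma targets Gbp7 differed by 0.46, the chemokine gene Cxcl11 by -0.29, Gbp5 by -0.24 and Cd274, which encodes PD-L1, by -0.14. The 7 negative regulators had a median of 0.10, and Socs1, the main inhibitor of JAK signalling in this pathway, differed by -0.18 in all arrays and by -0.02 without reconSCID replicate 3. The regulators Ptpn11, Trim21 and Ptpn2 differed by 0.11, 0.06 and 0.13. The ligands Ifna2, Ifna4, Ifnk and Ifne differed by 0.22, 0.07, 0.07 and -0.05, and the receptor chains Ifnlr1 and Il10rb by 0.12 and 0.055.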

How the data were processed

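Gene expression was measured on 1 Affymetrix array per sample, in 4 reconRAG1KO and 3 reconSCID samples, from biotinylated cRNA made from 6 µg total RNA, per the labels' protocols. The deposited values are a linear intensity per probe set on similar scales across arrays, with medians of 88.6 to 96.3. How the authors summarised and normalised the probes, and on which build, is not stated in the sources at hand. Of 34760 probe sets, 21640 had 1 gene symbol, 1321 carried more than 1, and 11799 had none in the platform annotation. With 7 arrays, the number of arrays limits precision.

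Log2 was taken with no pseudocount. Every probe set was fitted by limma 3.58.1 (lmFit, eBayes) under R 4.3.3. Tests were two-sided, p-values were adjusted by the Benjamini-Hochberg method across all probe sets, the threshold was 0.05, and the fit was tested on simulated data. Array sets were cut from the arrays' correlations by average-linkage clustering. The members and lists were chosen with earlier results of these data known, so no list was given a p. Named were all members, the IFNAR and IFNGR chains, Jak1, Jak2, Tyk2, Ifnb1, Ifng, and in each other pathway list up to 4 genes with the smallest unadjusted p, and 1 item of this rule is not reported here. Alternatives were quantile normalisation, median centring, a pseudocount of 16, a filter on low values, the mean of a gene's probe sets, a trended robust fit, array weights, replicate and array-set blocks, and leaving out each sample. Blocked fits without each sample were added after seeing the data. Those without either array of the smaller set are identical to the fit of the larger set alone. Promoter sequences came from RefSeq.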

Additional observations from a re-analysis of the deposited data

Results flagged for a closer look

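For 14 of 60 named genes, 1 of the 4 reconRAG1KO arrays lay far from the other 3, as measured by its gap to the nearest array relative to the whole range. Chance alone gives about 1 in 20 where values are not tied. In 13 of the 14 the array was reconRAG1KO replicate 4, which belongs to the smaller array set. Replicate 4 was low for Ifit2 (7.43 against 8.29 in the nearest array), Ifih1 (8.57 against 8.95), Mx1 (7.14 against 7.97), Usp18 (9.30 against 10.43) and Parp9 (8.41 against 8.65). It was also low for Ifnar1 (8.30 against 8.86), Ifnar2 (7.97 against 8.91), Jak2 (9.59 against 10.83), Ptpn11 (8.46 against 8.54) and Ptpn2 (7.97 against 8.66). It was high for Ddx58 (9.02 against 8.60), Oas2 (8.76 against 7.66) and Ifna4 (4.73 against 4.44). For Ifng reconRAG1KO replicate 3 was low, at 5.92 against 5.99, where the other 3 arrays held the same value. For Parp9 the other 3 arrays were also all at 8.65, and for Ptpn11 all at 8.54 to 2 decimals, and where values are tied the chance rate does not apply. The 3 reconSCID samples are too few for this measure.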

How the results depend on the processing

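In every alternative run 0 members passed adjustment, and 0 probe sets did except with array weights, where 57 passed. At an unadjusted p under 0.05 there were 1159 probe sets. Leaving out each sample in turn, the type I median ran from -0.03 (without reconSCID replicate 3) to 0.08, and from -0.03 to 0.17 in the fit that blocks on array set, and the gamma-type median from -0.01 to 0.04 in either fit. With the replicate number as a block (replicate block) the type I median was 0.04, the gamma-type median 0.02 and the members called 0. For replicates 1, 2 and 3, the deviations of same-numbered samples from the group means correlated at 0.472, -0.508 and 0.314. Replicates 1 and 3 of both groups lie in the larger array set, and those numbered 2 lie in different sets. The difference between sets was not removed, so these correlations cannot show whether same-numbered samples pair. With quantile normalisation the medians were 0.065 and 0.05. Of 29 members, 11 kept their sign in every alternative but the smaller set alone. These were Cmpk2, Ddx58, Gbp3, Ifi35, Ifih1, Irf1, Oas3, Parp14, Rsad2, Trim25 and Zbp1. With 3 and 4 samples a group, the width of the intervals limits which differences could be seen.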
